A study of Mus musculus with 18 samples.

Results

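The genes described here are 9 that had lower array signal in mouse embryoid bodies after 8 h of retinoic acid (RA): Otx2, Fgf5, Mycn, Calcr, Cdc42ep5, Far2, Cbr3, Aadat and Glod5. They were chosen by that difference, at an adjusted p under 0.01 and at least 2-fold, and are followed over all 18 arrays of the series. They are 9 of the 18193 genes and 14 of the 45037 probe sets tested. HBG3 mouse embryonic stem (ES) cells were differentiated into motor neurons. The 6 stages were undifferentiated ES cells (day 0, 3 arrays), embryoid bodies before RA (day 2, 4 arrays), such bodies with 8 h of RA (2 arrays), neural precursors at day 3 (3 arrays), progenitor motor neurons at day 4 (3 arrays) and postmitotic motor neurons at day 7 (3 arrays). All stages come from 1 cell line without a stated genetic change between groups, and RA and an agonist of hedgehog signaling were added to the medium on day 2. Sample labels name RA alone for the 8 h arrays, and whether the agonist was present during those 8 h is not settled by the sources used here. No array of cells kept without RA for the same 8 h was analysed here, and the medium was also exchanged on day 2, so RA, elapsed time and fresh medium cannot be told apart.

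RA is made from vitamin A and acts through nuclear receptors, the RARs, which bind DNA as partners of RXR and change transcription of nearby genes. In the embryo it gives posterior character to the neural plate, and the forebrain and midbrain form where it is scarce. When ES cells are aggregated without LIF they leave the naive pluripotent state and pass through a primed state, like that of the epiblast after implantation, before they take up neural or other fates. Fgf5 and Otx2 are widely used as marks of that primed state.

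The values are log2 GCRMA signals, and background was set at a log2 signal of 4, with 55.2% to 56.9% of an array's probe sets below. A gene with several probe sets is given by the brightest, judged on the mean of the 18 arrays. The stage labels were checked against marker genes. Nanog and Pou5f1, pluripotency factors, lay between 11.43 and 13.24 on every day 0, day 2 and RA array, Pax6 (neural precursors) lay between 11.35 and 11.59 at day 3, Olig2 (motor neuron progenitors) between 11.00 and 11.29 at day 4 and Mnx1 (motor neurons) between 5.67 and 7.44 at day 7. The later markers were not confined to 1 stage. Pax6 was 10.17 to 10.93 at day 4, and Mnx1 reached 5.53 there. Olig2 was 6.96 to 7.48 at day 0 and 7.69 to 10.34 at day 7. The day 2 arrays formed 2 pairs. Replicates 1 and 2 correlated at 0.992 and replicates 3 and 4 at 0.991, against a mean of 0.972 between the pairs, and the RA arrays correlated at 0.987 with replicates 3 and 4 and at 0.974 with replicates 1 and 2. Differences from day 2 are therefore also given against each pair, where replicates 1 and 2 are the first pair and replicates 3 and 4 the second. These arrays hold RNA from whole cultures, in which fewer cells of a type and less RNA per cell cannot be told apart.

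In the RA arrays all 9 genes lay under the lowest day 2 array, with a median difference of -2.10 on the log2 scale, and 0.583% of all genes lay apart in this direction by 2-fold or more. On the brightest probe set of each gene 11 genes (0.0605%) passed the choosing threshold, the 9 members with Fgf4 and Enc1. Since the genes were chosen on this contrast, these values are a description and carry no test. Against the first pair of day 2 arrays the median difference was -1.97, and against the second it was -2.20. Otx2, Fgf5, Far2 and Cbr3 moved little between the pairs, with -4.48 and -4.30, -3.50 and -3.45, -2.03 and -2.17, and -1.36 and -1.40. The other 5 moved more, and theirs are given with each gene. Cdc42ep5 and Mycn lay just inside the threshold, with adjusted p of 0.0084 and 0.0097 for log2 differences of -1.78 and -1.67. Tmem100 and Aoah lay just outside it, with adjusted p of 0.011 and 0.016 for log2 differences of -1.23 and -1.06. The 9 genes differed in their earlier and later course, and they are described by that course.

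**Figure D1:**
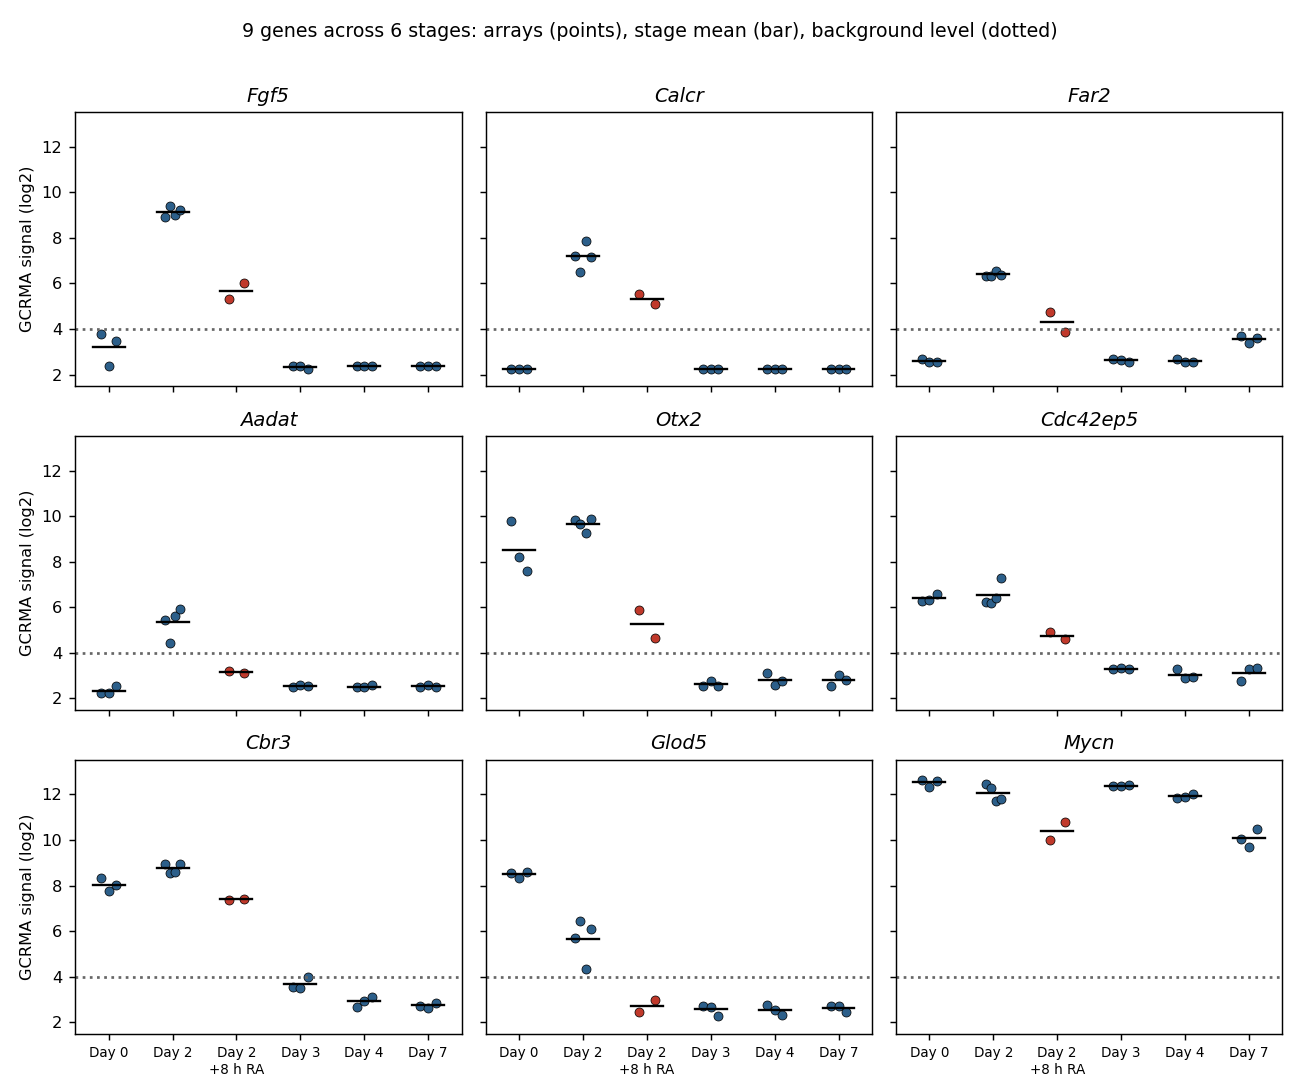
GCRMA signal on the log2 scale (vertical axis) at the 6 stages (horizontal axis) for each of the 9 genes. Each point is 1 array, RA arrays in red, the bar is the stage mean and the dotted line is the background level of 4. Fgf5, Calcr, Far2 and Aadat are above background at day 2 and not at day 0, and Mycn is the member that is high again at day 3.

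Fgf5, Calcr, Far2 and Aadat appeared between day 0 and day 2. All 4 had every day 0 array under the background level and every day 2 array above it, and the day 2 ranges lay above the day 0 ranges by 2-fold or more. Of all genes, 3.58% lay apart in this way. The day 2 arrays took part in the choice of the genes, so no test is given for this rise. On these probe sets all 4 were under the background level again on every array of days 3, 4 and 7.

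Fgf5 encodes a secreted fibroblast growth factor that signals through FGF receptors and the ERK pathway. Its log2 signal (probe set 1438883_at, chromosome 5) was 3.79, 2.40 and 3.46 at day 0 and 8.92, 9.41, 9.0 and 9.23 at day 2. It was 5.32 and 6.01 in the RA arrays. The day 2 mean was at least 35.3-fold above day 0, and the nearest arrays of the 2 groups were 5.12 log2 units apart. The RA mean of 5.67 ± 0.48 (SD, n = 2) against 9.14 ± 0.22 at day 2 (SD, n = 4) was a log2 difference of -3.47, 11.1-fold lower, and both RA arrays were still above each day 0 array. From day 3 on, Fgf5 lay between 2.24 and 2.40 on all 9 arrays. Its other probe set, 1426186_a_at, was above background on 1 array of the series, day 2 replicate 4 at 4.93, and its RA and day 2 ranges overlapped.

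Calcr encodes the calcitonin receptor, a G protein-coupled receptor for a peptide hormone of calcium balance. Its log2 signal (1418688_at, chromosome 6) was 2.24 on all 3 day 0 arrays, the floor of the table, and 7.21, 6.50, 7.87 and 7.17 at day 2. In the RA arrays it was 5.55 and 5.09. Calcr was thus under the background level in ES cells, present on each day 2 array and lower but still measurable after 8 h of RA. The RA mean was 3.65-fold lower (log2 difference -1.87, with -1.53 against the first pair of day 2 arrays and -2.20 against the second), and the day 2 mean at least 9.11-fold above day 0. Calcr was at 2.24 again on every array of days 3, 4 and 7.

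Far2 encodes a fatty acyl-CoA reductase, a peroxisomal enzyme that makes fatty alcohols for waxes and ether lipids. Its log2 signal (1455889_at, chromosome 6) was 2.68, 2.54 and 2.54 at day 0 and 6.32, 6.34, 6.56 and 6.38 at day 2. In the RA arrays it was 4.73 and 3.87. The day 2 arrays were close to each other, with an SD of 0.11, while the RA arrays stood on either side of the background level with an SD of 0.61. The RA mean was 4.28-fold lower (log2 difference -2.10, and -2.03 with values raised to background), and the difference was -1.67 with RA replicate 1 alone and -2.53 with RA replicate 3 alone. The other Far2 probe set, 1435621_at, was above background at day 2 on 1 array of 4 and at day 7 on 1 of 3, and its RA and day 2 ranges overlapped.

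Aadat encodes a mitochondrial aminotransferase that acts on alpha-aminoadipate in lysine breakdown and on kynurenine. Its log2 signal (1418519_at, chromosome 8) was 2.24, 2.24 and 2.55 at day 0 and 5.45, 4.45, 5.63 and 5.91 at day 2. It was 3.21 and 3.13 in the RA arrays. Aadat was thus already under the background level after 8 h of RA, which makes the RA mean at least 2.57-fold lower (measured log2 difference -2.19, with -1.78 against the first pair of day 2 arrays and -2.60 against the second). At days 3, 4 and 7 it lay between 2.49 and 2.59.

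Over the 18 arrays the 4 genes correlated with each other at Pearson's r of 0.94 to 0.97, as a description, since the arrays of a stage share their culture stage and the genes were chosen on some of these arrays. Likeness was ranked over 10327 genes with a stage mean of at least 6, from which members were then left out. Eomes was most like Fgf5 (r = 0.979) and Lypd6 most like Calcr (0.989) and Aadat (0.924), while Kcnj3 was most like Far2 (0.955). Eomes, a T-box factor of the primitive streak, averaged 5.07 in the RA arrays and 7.55 at day 2. Of 5 primitive streak markers listed 4 were measured, and T had no probe set under that symbol here. Of the 4, 0 were called with RA, and the median log2 difference of -0.01 was that of Mesp1 and Tbx6. Eomes differed by -2.47 (adjusted p = 0.017) and Mixl1 by 0.58 (adjusted p = 1). Mixl1 and Eomes were above background on every RA and day 2 array, Mesp1 and Tbx6 on none, and the summed log2 signal of the 4 was 11.5 to 15.0 at day 0, 17.3 to 19.3 at day 2 and 15.8 to 17.5 with RA, with overlapping RA and day 2 ranges. That of 6 extraembryonic endoderm markers was 16.8 to 19.1, 17.997 to 21.3 and 21.0 to 21.3 at these stages, with Gata4, Gata6, Sox17 and Afp under background throughout. The part of such cells in the result was not tested.

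The start-site windows of the 4 genes are shown as the DNA next to the genes that were on at day 2 and lower after RA. They are the RefSeq windows of GRCm38.p6 from 250 bases before to 50 bases after the gene start, 5′ to 3′ in the direction of the gene. Capitals mark every match on either strand to the hexamer AGGTCA, of the kind that RAR and RXR bind in pairs, or to a variant of it, either AGTTCA or the forms GGGTCA and likewise GGTTCA. They also mark, at any position, the letters of the GC box (GGGCGG), the TATA box (TATAAA) and the CCAAT box. The TATAAA of Fgf5 and the CCAAT match of Aadat lie after the gene start. No 2 of the matches overlap except a pair of GGGCGG in Cbr3, which is not shown.
Fgf5, chr5:98253934-98254233 (plus strand): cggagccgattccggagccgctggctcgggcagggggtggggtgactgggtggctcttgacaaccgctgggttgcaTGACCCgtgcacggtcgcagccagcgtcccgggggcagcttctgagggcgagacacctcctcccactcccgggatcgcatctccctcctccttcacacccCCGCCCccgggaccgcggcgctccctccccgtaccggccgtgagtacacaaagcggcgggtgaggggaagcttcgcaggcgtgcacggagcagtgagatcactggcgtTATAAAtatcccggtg
Calcr, first window, chr6:3763574-3763873 (minus strand): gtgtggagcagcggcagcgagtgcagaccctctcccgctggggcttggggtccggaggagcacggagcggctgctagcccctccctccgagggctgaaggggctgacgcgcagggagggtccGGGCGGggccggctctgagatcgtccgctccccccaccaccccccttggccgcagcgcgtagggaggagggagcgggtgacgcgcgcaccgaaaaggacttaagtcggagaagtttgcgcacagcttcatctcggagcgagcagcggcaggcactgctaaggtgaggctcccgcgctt
Calcr, second window, chr6:3764664-3764963 (minus strand): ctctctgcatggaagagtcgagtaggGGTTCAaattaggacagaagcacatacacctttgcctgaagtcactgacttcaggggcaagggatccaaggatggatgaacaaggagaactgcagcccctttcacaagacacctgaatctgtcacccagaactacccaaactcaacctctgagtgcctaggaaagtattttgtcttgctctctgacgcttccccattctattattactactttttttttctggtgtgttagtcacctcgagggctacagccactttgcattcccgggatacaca
Far2, chr6:148047166-148047465 (plus strand): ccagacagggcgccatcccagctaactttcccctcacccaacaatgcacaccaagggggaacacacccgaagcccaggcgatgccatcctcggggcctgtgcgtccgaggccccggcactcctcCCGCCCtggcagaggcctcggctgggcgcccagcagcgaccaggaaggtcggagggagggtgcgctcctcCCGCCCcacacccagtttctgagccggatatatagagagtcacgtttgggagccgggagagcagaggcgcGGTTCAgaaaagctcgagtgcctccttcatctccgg
Aadat, chr8:60505874-60506173 (plus strand): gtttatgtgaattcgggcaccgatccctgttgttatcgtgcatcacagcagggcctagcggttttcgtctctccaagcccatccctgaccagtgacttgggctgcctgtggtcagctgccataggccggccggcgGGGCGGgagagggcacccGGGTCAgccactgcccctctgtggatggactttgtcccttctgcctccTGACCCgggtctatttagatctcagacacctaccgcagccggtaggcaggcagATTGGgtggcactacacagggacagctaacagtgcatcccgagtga
Of these 5 windows 4 hold GGGCGG on the plus or the minus strand, and their GC contents of 68.3% (Fgf5), 70% (Calcr, first window), 66% (Far2) and 60.3% (Aadat) lie above the median of 52.7% over all windows. The second Calcr window holds no GGGCGG and 1 receptor hexamer, and its GC content of 47.3% lies below that median. Windows were given for 8 of the 9 members, 12 in all because some genes have several starts. Of these 12, 6 hold GGGCGG and 6 hold a receptor hexamer, where 35.7% and 43.7% of 32851 windows do. No member window holds 2 of the hexamers as a direct repeat spaced by 1, 2 or 5 bases, arrangements found in 0.222%, 0.268% and 0.0974% of all windows. The E-box CACGTG was in 0 of the 12 and in 7.15% of all windows, TATAAA in 2 and in 13.6%, and CCAAT in 2 and in 37.4%. A match is a match of letters and not a binding site, and these windows leave out distal elements.

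Otx2, Cdc42ep5 and Cbr3 were already high in ES cells. The day 0 and day 2 ranges overlapped for Otx2 and Cdc42ep5, and Cbr3 differed by less than 2-fold. Otx2 was 2.22-fold higher at day 2 on average. All 3 genes were lower in the RA arrays and lower again at day 3. Between themselves they correlated at r of 0.94 to 0.97 over the 18 arrays, as a description. Otx2 and Cdc42ep5 shared their most similar other gene, Gm9564 (r = 0.965 and 0.982), and Rasgrp2 was most like Cbr3 (0.989).

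Otx2 encodes a homeodomain factor needed for the forebrain and midbrain, which is also active in the epiblast. Its log2 signal (1425926_a_at, chromosome 14) was 9.77, 8.18 and 7.58 at day 0 and 9.83, 9.67, 9.25 and 9.89 at day 2. It was 5.89 and 4.65 in the RA arrays. The day 0 arrays were spread (SD 1.13). Day 0 replicate 1 fell within the day 2 range and replicates 2 and 3 lay under it, and the day 2 mean was higher by a log2 difference of 1.15. Both RA arrays lay under every earlier array. The RA mean of 5.27 ± 0.87 (SD, n = 2) was 20.9-fold under the day 2 mean of 9.66 ± 0.29 (SD, n = 4) (log2 difference -4.39). It was -3.77 with RA replicate 1 alone and -5.01 with RA replicate 3 alone, against -3.82 and -3.13 for Fgf5, so the order of the 2 genes turned with the RA array. From day 3 on Otx2 lay between 2.55 and 3.11 on all 9 arrays, under the background level.

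Cdc42ep5 encodes a binding partner of the small GTPase Cdc42, which organizes actin and septin filaments. Its log2 signal (1418712_at, chromosome 7) was 6.28, 6.31 and 6.60 at day 0, 6.23, 6.21, 6.42 and 7.29 at day 2, and 4.92 and 4.59 in the RA arrays. Day 0 and day 2 overlapped, and the RA arrays lay 3.44-fold lower on average (log2 difference -1.78, with -1.46 against the first pair of day 2 arrays and -2.10 against the second). At days 3 to 7 it lay between 2.78 and 3.34. Its other probe set, 1430018_at, stood at 3.05 and 2.78 in the RA arrays, with an overlapping day 2 range of 2.88 to 5.0.

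Cbr3 encodes an NADPH-dependent carbonyl reductase. Its log2 signal (1427912_at, chromosome 16) was 8.34, 7.74 and 8.04 at day 0 and 8.95, 8.55, 8.61 and 8.97 at day 2. In the RA arrays it was 7.35 and 7.43. It was 2.60-fold lower after 8 h (log2 difference -1.38), and the RA arrays had an SD of 0.055. At day 3 it was 3.54, 3.50 and 4.01, with 2 of 3 arrays under the background level, and it was 2.69, 2.94 and 3.13 at day 4.

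Glod5, a little-studied protein named for its glyoxalase domain, had begun to decline before RA. Its log2 signal (1460454_at, chromosome X) was 8.54, 8.34 and 8.59 at day 0 and 5.71, 6.45, 4.33 and 6.10 at day 2. It was 2.43 and 2.98 in the RA arrays. The day 2 arrays were the most spread of the members (SD 0.93) and all lay under the day 0 arrays, 7.18-fold on average, where 4.62% of all genes lay apart downwards by 2-fold or more. Both RA arrays were under the background level, so the RA mean was at least 3.13-fold lower (measured log2 difference -2.94, with -3.37 against the first pair of day 2 arrays and -2.51 against the second). The genes most like Glod5 were Esrrb (r = 0.955), Sgk2 (0.952) and Fbxo15 (0.942), and Esrrb, a nuclear receptor of naive pluripotency, averaged 11.41 at day 0, 6.53 at day 2 and 4.20 in the RA arrays.

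Mycn, a MYC family transcription factor that drives growth and proliferation in embryonic and neural progenitors, dipped and was high again at day 3. Its log2 signal (1417155_at, chromosome 12) was 12.65, 12.33 and 12.60 at day 0 and 12.44, 12.28, 11.69 and 11.82 at day 2. It was 9.9995 and 10.78 in the RA arrays, then 12.37, 12.36 and 12.41 at day 3. The RA arrays lay 3.18-fold under day 2 on average (log2 difference -1.67, with -1.97 against the first pair of day 2 arrays and -1.36 against the second). The day 3 arrays all lay above both RA arrays, 3.98-fold on average, and Mycn was the 1 member higher there, where 5.4% of all genes lay apart upwards by 2-fold or more. On the other measurable probe set, 1425922_a_at, the RA arrays were at 4.18 and 6.06 and overlapped the day 2 range of 6.02 to 7.91. There they also overlapped the day 3 range of 5.75 to 7.97. The remaining probe set was at the floor on all 18 arrays.

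The Mycn start-site window is shown because this member was high again at day 3, with capitals as for the windows above. It holds GGGCGG on both strands and none of the receptor hexamers.
Mycn, chr12:12941787-12942086 (minus strand): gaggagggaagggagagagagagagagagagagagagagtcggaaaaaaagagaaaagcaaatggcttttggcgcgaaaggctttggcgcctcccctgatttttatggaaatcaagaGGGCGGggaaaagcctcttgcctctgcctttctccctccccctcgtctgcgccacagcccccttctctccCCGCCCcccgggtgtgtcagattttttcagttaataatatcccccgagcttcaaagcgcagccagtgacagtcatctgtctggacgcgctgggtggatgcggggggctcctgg
Over the 18 arrays Mycn correlated with the other members at r between -0.12 and 0.52. Son (r = 0.919), Prr5l (0.879) and Gli2 (0.875) were most like it. Gli2, a transcription factor of hedgehog signaling, averaged 8.08 at day 2, 7.00 in the RA arrays and 8.81 at day 3.

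**Figure D2:**
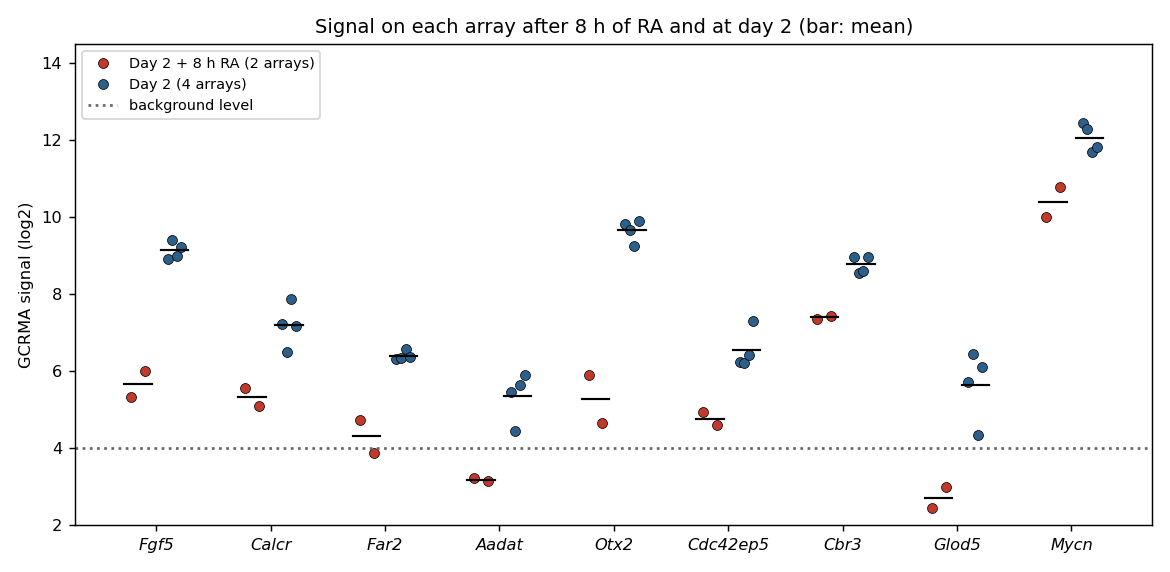
GCRMA signal on the log2 scale (vertical axis) of each gene (horizontal axis) on the 2 arrays with 8 h of RA (red, left) and the 4 day 2 arrays (blue, right), with the mean as a bar and background, 4, dotted. Ranges do not overlap for any of the 9, which were chosen on this difference, Aadat and Glod5 lie under the background level with RA, and levels are to be compared within a gene.

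After the RA arrays, 6 of the 9 genes were lower at day 3 than at 8 h, with ranges apart by 2-fold or more on the measured scale (Otx2, Fgf5, Calcr, Cdc42ep5, Far2 and Cbr3), where 8.39% of all genes were. With day 3 set to the background level, only at least 1.69-fold was left for Cdc42ep5 and 1.23-fold for Far2. Otx2, Fgf5, Calcr and Cbr3 stayed above 2-fold. The RA arrays helped to choose the genes, so this too is a description. Against day 0, with ranges apart by 2-fold or more on the measured scale, the RA arrays were still higher for Fgf5, Calcr and Far2 (3 of 9, and 6.88% of all genes). They were lower for Otx2, Mycn, Cdc42ep5 and Glod5 (4 of 9, and 4.95% of all genes). With day 0 set to the background level, the RA mean was at least 3.18-fold higher for Fgf5, 2.50-fold for Calcr and only 1.23-fold for Far2. Aadat and Glod5 were already under background at 8 h.

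The signals of days 0, 3, 4 and 7 did not enter the difference that chose the genes, and the differences between these days were tested with limma on all probe sets. Their arrays did enter the common error of the fit behind the choosing p and the choice of the brightest probe set, so the tests are not wholly independent of the choice. At day 3, 4 of the 9 genes were lower than in ES cells and 0 higher, where 5.41% of all genes were called lower and 5.05% higher at an adjusted p under 0.01 and at least 2-fold. Otx2 was at least 22.8-fold lower at day 3 (log2 fold change -5.88, SE 0.45, adjusted p = 1.9e-06). Glod5 was at least 22.5-fold lower (-5.93, SE 0.40, adjusted p = 6.1e-07) and Cdc42ep5 at least 5.27-fold lower (-3.09, SE 0.25, adjusted p = 3.2e-06). Cbr3, with 2 of 3 day 3 arrays under the background level, had a log2 fold change of -4.36 (SE 0.18, adjusted p = 6.0e-09), and of -4.04 with values raised to background. Each of the 4 was lower on 3 of 3 day 3 arrays than on any day 0 array. In a fit of the day 3 and day 0 arrays alone Otx2 lost the call, at an adjusted p of 0.017.

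The other 5 were not called between day 3 and day 0. Calcr, Far2, Aadat and Fgf5 had every array of both days under the background level, so no fold is given. Fgf5 had a log2 difference of -0.88 (adjusted p = 0.060), which was called without day 0 replicate 2. Mycn, at 12.38 ± 0.030 at day 3 and 12.53 ± 0.17 at day 0 (SD, n = 3 each), had a log2 fold change of -0.15 with an SE of 0.24 (adjusted p = 0.97). Of 6 feeder fibroblast markers 2 were called lower at day 3 than at day 0. Their summed log2 signal was 23.0 to 25.1 at day 3, with 2 to 3 genes above background, and 28.5 to 39.4 at day 0, with 4 to 5. Lum was under background on all of these arrays, and the part of feeder cells in the result was not tested.

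At day 4, 0 of the 9 genes were called against day 3 by limma, where 1.22% of all genes were, and 1 had an unadjusted p under 0.05. This was Cbr3, with a log2 difference of -0.76 (SE 0.18, adjusted p = 0.066). At day 7, 1 of the 9 was called against day 4 and was lower, where 6.58% of all genes were lower and 8.81% higher. Mycn was 10.06, 9.69 and 10.48 at day 7, against 11.83, 11.90 and 12.03 at day 4, ranges that do not overlap. It was 3.60-fold lower in postmitotic motor neurons (log2 fold change -1.85, SE 0.24, adjusted p = 9.2e-05). The call was lost in a fit of the 2 groups alone (adjusted p = 0.014) and with the 3 probe sets averaged (-0.91, adjusted p = 0.082).

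Far2 was 3.71, 3.41 and 3.60 at day 7 and 2.68, 2.54 and 2.54 at day 4, with every array under the background level, so no fold is given. The log2 difference of 0.99 (SE 0.16, adjusted p = 6.2e-04) missed the 2-fold threshold. With the replicate block it passed (1.09, adjusted p = 0.0075), and with values raised to background no difference was left. The other probe set was 2.80, 4.13 and 3.31 at day 7, against 2.37 to 2.51 at day 4, a log2 difference of 0.97 that was not called (SE 0.42, adjusted p = 0.15). Against day 0, 5 of the 9 genes were lower at day 7 and 0 higher, where 13.9% of all genes were lower and 14.3% higher. These were Otx2, Glod5, Cbr3 and Cdc42ep5, with Mycn now 5.48-fold lower (-2.45, SE 0.24, adjusted p = 3.4e-06). With the replicate block Far2 was called higher here as well (1.09, adjusted p = 0.0045).

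**Figure D3:**
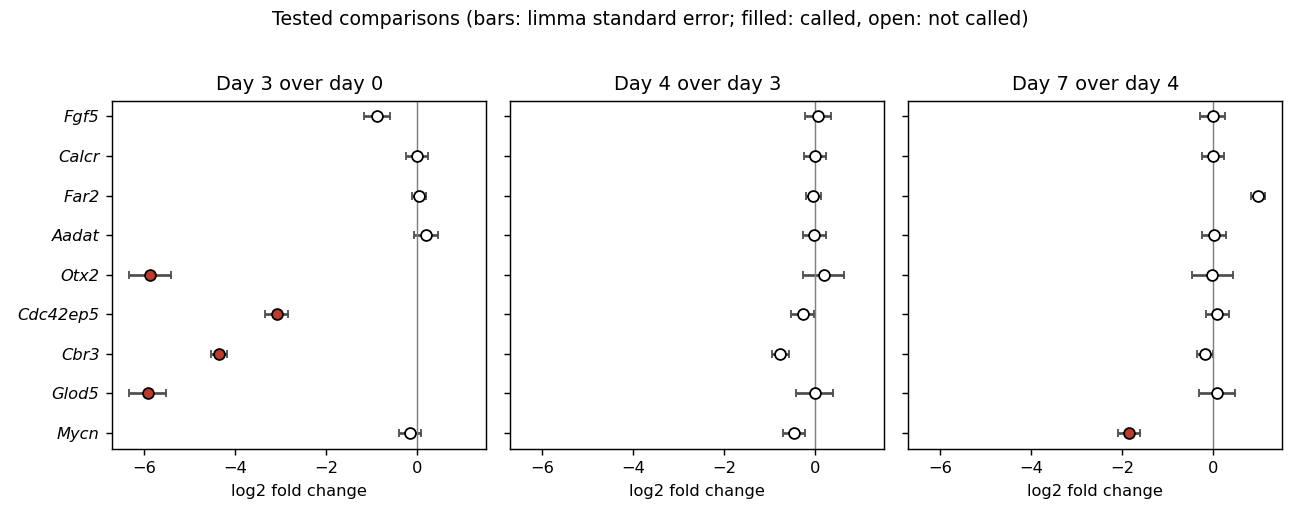
Log2 fold change (horizontal axis) of each gene (vertical axis) at day 3 over day 0, day 4 over day 3 and day 7 over day 4, with limma's standard error as bars, 3 arrays per group. Filled points passed the threshold, 4 genes at day 3, 0 at day 4 and Mycn at day 7.

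Relatives and pathway partners of the 9 genes, from lists drawn up by family and function, were tested in the RA comparison as well. Of 91 such genes measured, 1 was called, Fgf4, and 7 had an unadjusted p under 0.05. In this comparison 0.368% of all genes were called in either direction. A filter on dim probe sets left 63 of the 91 genes. A gene under background at day 2 could not be seen to fall, so a list's count or median does not show that its genes stayed level. Fgf4 encodes an FGF of the early embryo and ES cells. It was 10.62 and 10.51 in the RA arrays, against 12.02, 11.60, 11.88 and 12.14 at day 2, and the ranges did not overlap. It was 2.54-fold lower with RA (log2 fold change -1.34, SE 0.14, adjusted p = 3.9e-04). In a fit of the RA and day 2 arrays alone the log2 fold change was again -1.34, and the call was lost (adjusted p = 0.25). Fgf4 is 1 of 21 other FGF ligands, and it averaged 3.04 at day 3 and 13.18 at day 0. The median difference of these ligands with RA was -0.04, but most of them lay under background on every RA and day 2 array. Among those not called, Fgf15 differed by -1.41 (adjusted p = 0.85) and Fgf17 by -1.07. The highest difference was 0.40, for Fgf11.

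Of 8 genes induced by FGF and ERK signaling, among them Spry4, Dusp6 and Etv5, 0 were called with RA and 1 had an unadjusted p under 0.05, with a median log2 difference of -0.18. Of 9 primed epiblast genes 0 were called and 1 passed the unadjusted threshold (median -0.27), and of 8 measured forebrain and midbrain genes 0 were called and 0 passed it (median 0.00). The limit for genes under background holds for these counts and medians too. Gbx2, which opposes Otx2 at the border between midbrain and hindbrain, was 9.11 and 10.05 with RA, against 8.32 to 8.76 at day 2, and its log2 difference of 0.98 had an adjusted p of 1. The median difference over all genes was 0.00.

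The nearest relatives of the enzyme, receptor and effector genes were not called with RA, and their later course is given beside it. Of 10 MYC network genes 0 were called and 0 had an unadjusted p under 0.05, and Mycl, at 8.88 and 10.04 with RA and 8.24 to 9.0 at day 2, had a log2 difference of 0.73 (adjusted p = 1). Cbr1, a related carbonyl reductase, differed by -0.28 with RA and was higher at day 7 than at day 4 (1.39, SE 0.29, adjusted p = 0.0039). Far1, the other fatty acyl-CoA reductase, differed by -0.01 with RA and was lower at day 7 than at day 4 (-1.25, SE 0.21, adjusted p = 8.6e-04). Calcrl, the receptor for adrenomedullin and CGRP, differed by 0.56 with RA and was higher at day 7 (2.39, SE 0.51, adjusted p = 0.0041). Cdc42ep3 was 10.73 and 10.66 with RA, above the day 2 range of 9.21 to 10.17 (log2 difference 0.87, not called). Like Cdc42ep5, it was lower at day 3 than at day 0 (-3.36, SE 0.36, adjusted p = 3.5e-05). Yet it was higher at day 7 than at day 4 (3.58, SE 0.36, adjusted p = 9.6e-06). Whether relatives and members differed from each other was not tested.

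**Figure D4:**
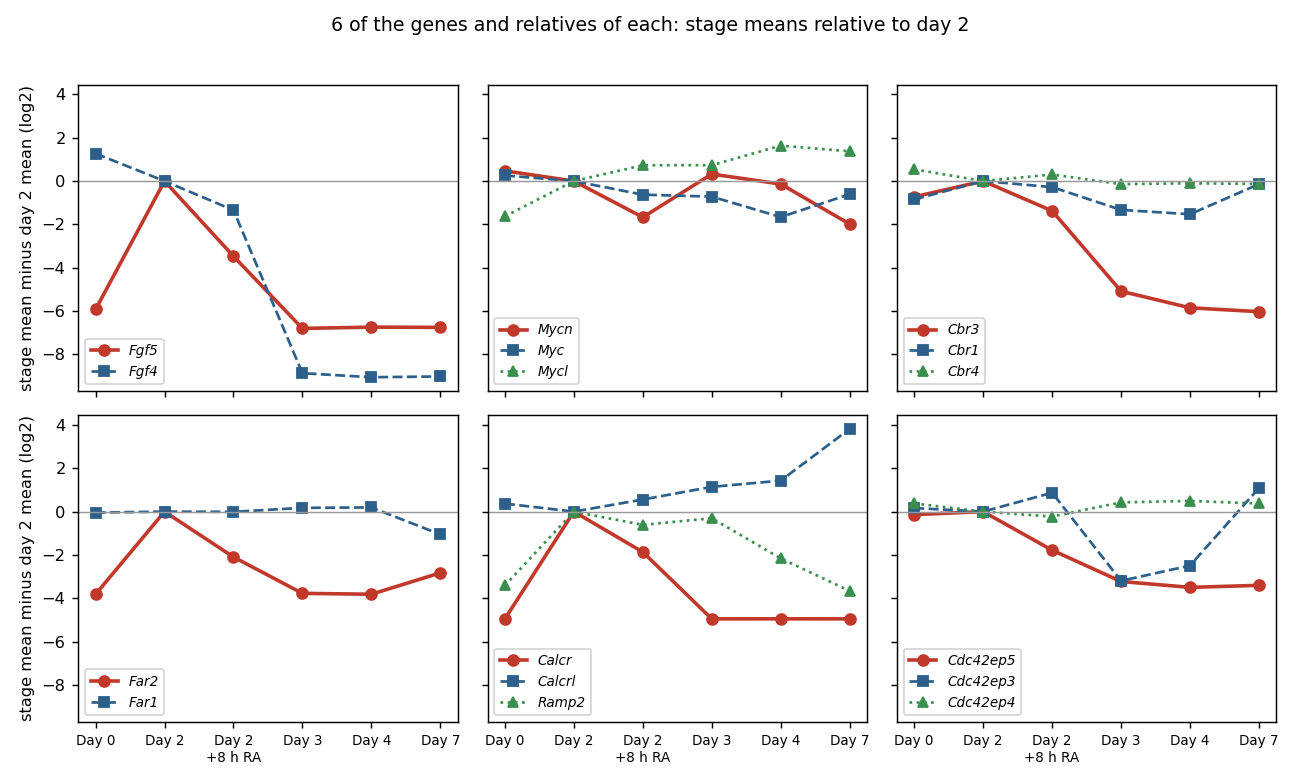
Stage mean minus the day 2 mean on the log2 scale (vertical axis) at the 6 stages (horizontal axis) for 6 of the genes (red) and relatives of each (blue and green), which were picked from the lists for display. With RA Cbr1 stands at -0.28, Far1 at -0.01, Calcrl at 0.56 and Cdc42ep3 at 0.87, and Cdc42ep3 and Calcrl are above their day 2 level at day 7.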

How the data were processed

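Total RNA of HBG3 cells was amplified by the authors with a NuGen Ovation kit and measured on Affymetrix mouse expression arrays, in biological triplicate per time point according to their Methods. The authors deposited log2 signal values, 1 per probe set, after GCRMA (background adjustment from probe sequence, quantile normalization across all arrays, summary of probes). GCRMA and limma are named in the submitters' processing notes, with versions not given in the sources used here. Of 45101 probe sets 64 controls were left out. Of the 45037 tested, 34945 carry 1 gene symbol, 932 several and 9160 none here. Groups and replicate numbers come from the sample titles.

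The 6 group means were fitted to 18 arrays by lmFit and eBayes (limma 3.58.1, R 4.3.3, 12 residual degrees of freedom), with Benjamini-Hochberg adjustment over 45037 probe sets. Calls needed an adjusted p below 0.01 with a change of 2-fold or more on a gene's brightest probe set, and errors are SDs over arrays or limma's standard errors. The fit was tested on simulated data. "At least" folds set a group with every array under a log2 signal of 4 to 4. Named genes are the members, up to 4 called genes per list, the 3 genes most correlated with each member, and those next to the choosing threshold; other list genes and those of the stages were chosen after their values were seen. The members, lists and tests were chosen with earlier results of these data known. Arrays with 1 replicate number deviated together between days 3 and 0 (0.28, 0.12 and 0.22) and between days 4 and 3 (0.64, 0.42 and 0.75). Days 0, 3 and 4 thus pair by number. RA and day 2 did not (-0.22 and -0.45), nor did replicate 3 between days 7 and 4 (-0.18) or days 7 and 0 (-0.08). The main fit used no pairing, and the replicate block covered all 18 arrays, those of RA and day 7 included. Alternatives were other sample sets, the replicate block, trend and robust moderation, a filter on dim probe sets, values raised to background, quantile normalization, median centring, averaged probe sets, calls on any probe set, an adjusted p under 0.05 and each array left out. Fits with day 2 replicates 1 and 2 or 3 and 4 alone were added after seeing the data. Start-site windows are RefSeq's for GRCm38.p6. The number of arrays limits the precision.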

Additional observations from a re-analysis of the deposited data

How the results depend on the processing

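The counts of members called kept within 1.5 times of their values under every alternative at day 3 over day 0, day 4 over day 3 and day 7 over day 0. Leaving out each array gave 4 to 5, 0 to 0 and 5 to 6 members called. The 1 call at day 7 over day 4, Mycn, became 0 in a fit of the 2 groups alone and 0 with probe sets averaged, and the count became 2 with the replicate block, where Far2 was added (1.09, adjusted p = 0.0075). Leaving out each array gave 1 to 2, with Far2 added without day 4 replicate 1 or day 7 replicate 4. The cause of these changes was not tested. Far2 was also added at day 7 over day 0 by the block, which changed no other count of calls, and without day 0 replicate 1 or day 7 replicate 4. Fgf5 was added there, and at day 3 over day 0, without day 0 replicate 2. The 1 relative called with RA, Fgf4, became 0 in a fit of the RA and day 2 arrays alone and stayed 1 with each array left out and with either pair of day 2 arrays. The median difference of the members with RA ran from -2.23 to -2.0 with each array left out, and was -1.78 with values raised to background. Of 355 values of single genes, 329 stayed the same, 8 moved, 8 gained a call and 4 lost it. Tested values stayed the same if they kept their direction and side of the threshold. Differences of members with RA carry no call, and stayed the same if they shifted by less than the SD within groups. The 8 that moved were such differences, and all were still lower with RA. Leaving out arrays could not turn that direction, since every RA array of these chosen genes lay under every day 2 array. The 355 values include such differences, so their tally is no support for the fall with RA. In the other 6 of the 355 no difference was left. These were Fgf5 at day 3 and day 7 over day 0, with values raised to background and on its other probe set, and Far2 at day 7 over day 4 and over day 0 with values raised to background. Signals near background limit what can be said of Aadat, Glod5 and Far2 with RA and of most members after day 3.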

Other observations

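The pathway lists of Otx2 and Fgf5 also had values at day 3 over day 0 and day 7 over day 4 that were not given above. Of 8 genes induced by FGF and ERK signaling, 6 were called lower at day 3 than at day 0 and 0 higher (median -3.48), with Spry4 (-6.05, SE 0.50, adjusted p = 3.3e-06) and Etv5 (-5.33, SE 0.48, adjusted p = 7.3e-06) lowest, against 5.41% of all genes called lower. Spry2, an inhibitor of receptor tyrosine kinase signaling, and Etv5, an ETS transcription factor, were higher at day 7 than at day 4 (1.62 and 3.06, adjusted p = 0.0028 and 4.4e-04). Of 9 primed epiblast genes, 2 were lower at day 3 than at day 0, Nodal (-5.30) and Dnmt3b (-1.57), and 2 higher, Sox3 (6.32) and Sall2 (4.36). Of 8 measured forebrain and midbrain genes, Hesx1 (-4.70) and En2 (-3.47) were lower at day 3 and 0 were higher. All stand beside Otx2 and Fgf5 as values, and whether they moved with these members was not tested.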
